A study of Homo sapiens with 14 samples.

Results

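The joint treatment of LNCaP cells with cycloheximide (CHX) and R1881 was set against untreated control cells on 4 2-colour microarrays, out of 14 arrays in the series. These were all arrays whose titles pair CHX/R1881-treated with control LNCaP: 2 biological replicates (experiments 1 and 2), each hybridised with the treated RNA in Cy3 on one array and in Cy5 on the other. LNCaP is an established line of androgen-sensitive cells from a human prostate cancer metastasis. All cells, controls included, were kept without steroids for 48 h. The joint treatment was then 25 µg/ml CHX with 1 nM R1881, added together and left for 24 h. The other treatments, each on 4 arrays against control, were 25 µg/ml CHX alone and 1 nM R1881 alone, also for 24 h, and control cells received neither. A further 2 arrays set the joint treatment directly against CHX in experiment 1.

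R1881 (methyltrienolone) is a synthetic androgen that binds the androgen receptor, a transcription factor that needs no new protein to act on its direct targets. CHX stops ribosomes during elongation, so proteins that turn over quickly are lost, and induction that depends on newly made protein is blocked. Transcripts of immediate-early genes, many of which are short-lived and decay while they are translated, are known to accumulate when translation is stopped.

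Each value is a log2 ratio of RNA abundance in treated over control cells, so 1 is a doubling, and it holds no absolute level. The labels name both RNAs of an array without saying which is the numerator. All values were multiplied by −1 so that FOS and JUN lie above 0, which makes every direction below likely rather than certain, and the heights of FOS and JUN themselves are no finding. Ratios of the 2 dye orientations were averaged, which gives n = 2 experiments, and ± is the SD between them. A gene was called when limma's Benjamini-Hochberg adjusted p over 14532 named genes was under 0.05, and only called genes are said to have risen or fallen. The p-values measure the spread between 2 experiments, pooled over the 3 treatments. Fits with an experiment left out keep 1 log ratio for the joint treatment, so their spread comes from the other treatments alone. A call lost in such a fit may come from the smaller n and does not show that a gene rests on 1 experiment. Over probes, which are no independent replicates, the ratios had an SD of 0.58 to 0.61 on the 4 arrays. Experiment 1 gave a correlation of 0.893 between its dye orientations, and experiment 2 gave 0.83. Where a gene is given 4 values, they are those of experiment 1 with the treated RNA in Cy3 and in Cy5, then those of experiment 2 in the same dye order.

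The joint treatment changed 5443 of 14532 named genes (37.5%), of which 3028 rose (20.8% of all) and 2415 fell (16.6%). Counts of rises and falls in the gene groups below stand against these shares, also where they are not repeated. At least 2-fold changes were 827 rises and 471 falls, and at least 4-fold changes 107 rises and 56 falls. Rises of 8-fold or more numbered 20 and falls of that size 8. In RNA of a whole culture, fewer cells of a type and less RNA per cell cannot be told apart. Actin cytoskeleton genes and immediate-early factors stood among the largest rises. Transcripts of a few ribosomal proteins, tubulins and prostate-specific genes, with PRDX1, SOD1 and DDIT4, stood among the largest falls.

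**Figure D1:**
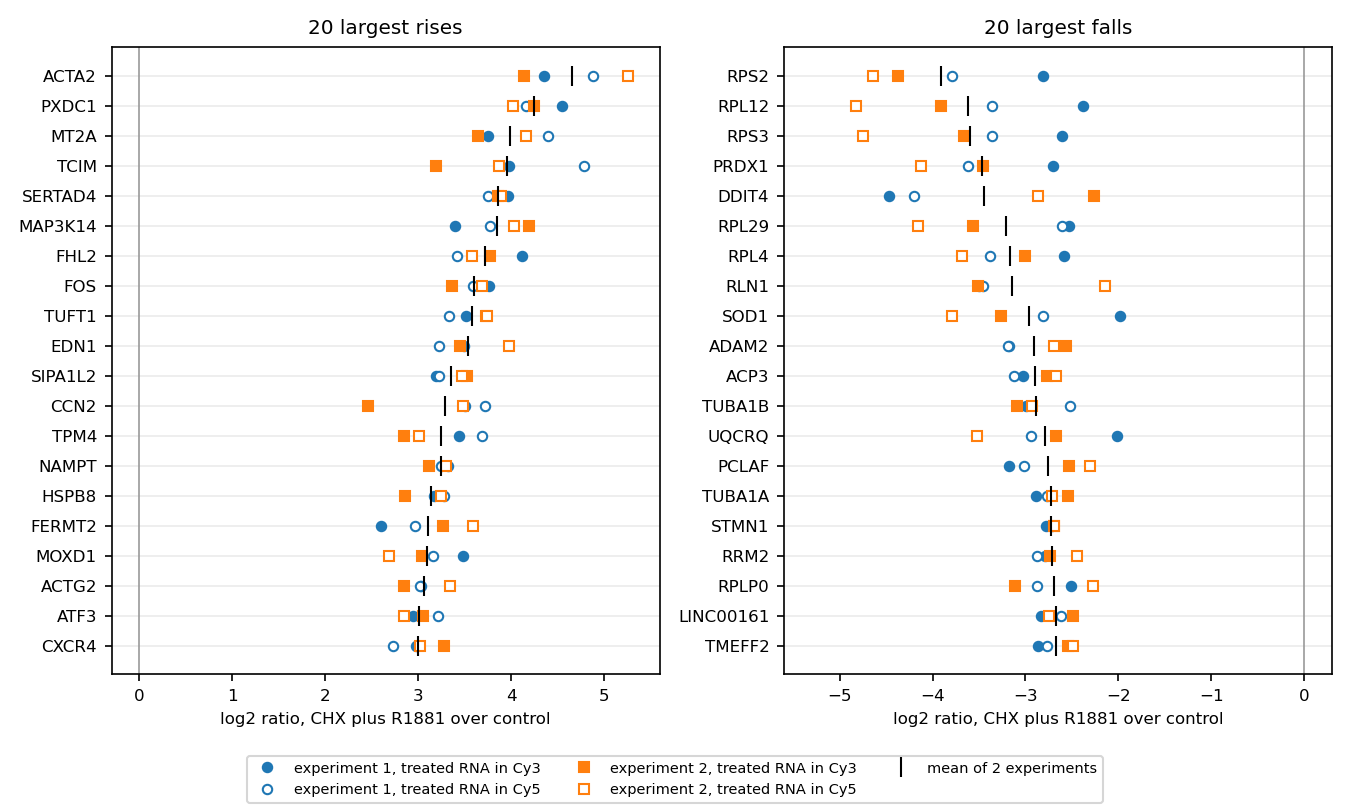
Log2 ratio of CHX plus R1881 over control on each of 4 arrays (horizontal axis) for the 20 largest rises (left) and the 20 largest falls (right) among called genes with the same sign on all 4 arrays. Symbols mark experiment and dye, and the black bar is the mean of 2 experiments, which reaches 4.66 for ACTA2 on the left and −3.90 for RPS2 on the right.

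Outside the gene groups described below, several unrelated transcripts showed rises of this size. SERTAD4 had log2 ratios of 3.97, 3.75, 3.86 and 3.89 on the 4 arrays and rose 14.6-fold (limma adjusted p = 4.72e-05). NAMPT, which encodes the rate-limiting enzyme of the NAD salvage pathway, had 3.32, 3.24, 3.12 and 3.30 (9.48-fold, limma adjusted p = 4.72e-05). CXCR4, the receptor of the chemokine CXCL12, lay between 2.73 and 3.28 on all arrays (8.02-fold). FERMT2, which encodes the integrin activator kindlin-2, rose 8.63-fold with 2.79 in experiment 1 and 3.43 in experiment 2. Every array lay far above 0 for each of these genes, and 1 sign on all 4 arrays was a condition for naming them. Falls of like size included STMN1, which encodes the microtubule-destabilising protein stathmin, with −2.78, −2.71, −2.69 and −2.69 on the 4 arrays (6.59-fold lower, limma adjusted p = 8.95e-05). The alpha-tubulin genes TUBA1B (−2.88 ± 0.18) and TUBA1A (−2.73 ± 0.14) fell beside it. Probes for closely related family members, such as tubulins, actins, metallothioneins and histones, may bind each other's transcripts, which was not tested.

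Genes of the actin cytoskeleton and targets of serum response factor (SRF), a transcription factor that reads the state of actin, rose as a group: 20 of 24 measured members rose and 0 fell, with a median of 1.34 against 0.01 over all genes. ACTA2, smooth muscle alpha-actin, had 4.35, 4.88, 4.14 and 5.26 on the 4 arrays and rose 25.2-fold (4.66 ± 0.06, limma adjusted p = 4.72e-05). FHL2, an SRF target that encodes a LIM domain cofactor, had 4.12, 3.42, 3.77 and 3.59 (13.2-fold, limma adjusted p = 4.72e-05). CCN2, a secreted matricellular protein gene, had 3.51, 3.72, 2.47 and 3.48 (9.81-fold). All 4 values of these genes stood clear of 0, with the lowest for CCN2 in experiment 2. Having 1 sign on all 4 arrays was a condition for naming them. TPM4 (tropomyosin 4, 3.25 ± 0.45), ACTG2 (enteric smooth muscle actin, 3.06 ± 0.05) and VCL (vinculin, 2.98 ± 0.09) followed. SRF itself, a target of its own product, had 2.50, 2.85, 1.86 and 3.01 (5.88-fold, limma adjusted p = 9.17e-05). TPM3, CNN3, CNN1 and ACTN4 were not called (−0.12, 0.16, 0.18 and 0.26). Leaving out experiment 1 left 15 rises and leaving out experiment 2 left 20. FLNA, filamin A, was less even, with 2.89 in experiment 1 and 1.55 in experiment 2. With CHX alone the median of the group was 1.25, measured against the same controls, and with R1881 alone 0.01.

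SRF binds a 10-base element named the CArG box. Promoters are shown for members that hold it, to set the element beside the rises. Each is the 250 bases before the RefSeq start on GRCh38.p14, 5′ to 3′ on the strand of the gene, with CArG boxes in capitals. SRF lies on the plus strand at chr6:43171019-43171268 and ACTG2 on the plus strand at chr2:73892758-73893007. FHL2 lies on the minus strand at chr2:105438514-105438763, TPM4 on the plus strand at chr19:16067288-16067537 and EGR1 on the plus strand at chr5:138465229-138465478.
SRF: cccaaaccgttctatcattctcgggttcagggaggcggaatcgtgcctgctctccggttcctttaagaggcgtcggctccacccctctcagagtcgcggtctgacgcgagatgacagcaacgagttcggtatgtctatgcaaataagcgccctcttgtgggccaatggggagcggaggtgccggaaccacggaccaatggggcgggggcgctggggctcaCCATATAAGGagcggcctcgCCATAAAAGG
ACTG2: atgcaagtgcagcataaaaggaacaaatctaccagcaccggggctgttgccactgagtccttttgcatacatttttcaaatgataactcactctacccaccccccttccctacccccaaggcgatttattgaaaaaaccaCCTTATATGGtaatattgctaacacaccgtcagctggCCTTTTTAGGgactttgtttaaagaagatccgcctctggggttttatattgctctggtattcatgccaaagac
FHL2: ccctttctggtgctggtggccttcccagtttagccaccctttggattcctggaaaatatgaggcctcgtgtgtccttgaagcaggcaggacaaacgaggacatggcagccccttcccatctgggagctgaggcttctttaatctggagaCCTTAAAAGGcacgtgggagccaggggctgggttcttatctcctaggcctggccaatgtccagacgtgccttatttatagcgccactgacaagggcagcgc
TPM4: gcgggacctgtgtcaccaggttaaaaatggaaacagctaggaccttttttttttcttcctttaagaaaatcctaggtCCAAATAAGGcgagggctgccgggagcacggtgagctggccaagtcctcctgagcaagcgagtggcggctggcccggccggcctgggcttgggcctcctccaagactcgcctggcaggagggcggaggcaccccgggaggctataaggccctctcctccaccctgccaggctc
EGR1: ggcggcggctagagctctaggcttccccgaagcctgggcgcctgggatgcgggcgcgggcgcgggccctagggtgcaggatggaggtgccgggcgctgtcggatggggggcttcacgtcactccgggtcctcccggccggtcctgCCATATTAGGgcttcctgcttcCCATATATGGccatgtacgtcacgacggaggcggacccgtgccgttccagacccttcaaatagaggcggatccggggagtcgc
The box occurred at 2 places in SRF, ACTG2 and EGR1, and at 1 in FHL2 and TPM4. In windows of 250 bases before to 50 after the start, searched on both strands, it was present in 6 of the 20 actin and SRF target genes with a promoter in the table (30%), against 351 of 27305 RefSeq promoters (1.29%) and 150 of 11612 genes on the array (1.29%). The list was drawn up as SRF targets, so this share is no independent evidence. Among genes that rose at least 4-fold, 7 of 79 with a promoter held it (8.86%), namely ACTG2, CNN2, FHL2, FLNA, GBP1, SRF and TPM4. All of these but GBP1 and SRF are on that list, so this share is no independent evidence either. Among genes that fell at least 4-fold, 1 of 48 held the box (2.08%). It was present in 45 of 2509 of all genes that rose (1.79%) and in 18 of 2001 of those that fell (0.9%). EGR1, an immediate-early zinc finger factor chosen for display after its value was seen, rose by 1.19 ± 0.06 (limma adjusted p = 0.000254). ACTA2 and VCL had no match in this window. A match in these letters describes sequence and says nothing of binding.

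Immediate-early transcription factors, which are switched on from stored components when a cell is stimulated, rose in part. Of 14 AP-1 members, the leucine zipper factors that pair as FOS and JUN, 7 rose and 2 fell. Those were 50% and 14.3%, against 20.8% and 16.6% of all genes. Without FOS and JUN, which set the sign, 5 of 12 rose and 2 fell. FOS had 3.76, 3.59, 3.37 and 3.69 and JUN 2.61, 2.63, 2.32 and 2.64. ATF3, a stress-induced partner of JUN, had 2.95, 3.21, 3.05 and 2.85 (8.07-fold, limma adjusted p = 0.000124). JDP2, which represses AP-1, fell (−1.06 ± 0.25), and FOSL1 fell by 0.57 on the log2 scale. FOSB (0.24 ± 0.40) and JUNB (0.16 ± 0.28) were not called, and the called members went both ways. Of 25 EGR, KLF and other early factors, 12 rose and 1 fell (48% and 4%). KLF6 had 2.26, 2.68, 2.25 and 2.59 (5.45-fold, limma adjusted p = 0.000116), and PLK2, an early-response kinase, 2.39, 2.46, 2.29 and 2.41 (5.23-fold). KLF5 (2.15 ± 0.07) and KLF10 (2.04 ± 0.22) rose about as far. With experiment 1 left out, JDP2 had −0.88.

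Genes that damp growth signalling rose beside them. MAP kinase phosphatases and Sprouty proteins, which switch off the MAP kinase cascade, had 9 rises and 0 falls among 16 (median 0.43). DUSP1, an early-induced phosphatase of JNK and p38, had 2.71, 2.75, 2.39 and 2.26 (5.77-fold, limma adjusted p = 0.000375). DUSP8 stood at 2.25 ± 0.01, SPRY2, a receptor tyrosine kinase inhibitor, at 1.78 ± 0.26, and DUSP4 at 1.42 ± 0.02. Of 15 GADD45, BTG and stress-arrest genes, 8 rose and 3 fell (53.3% and 20%, against 20.8% and 16.6% of all genes, median 0.76). GADD45A, a growth-arrest and DNA damage sensor, had 2.27, 2.44, 2.08 and 2.09 (4.66-fold, limma adjusted p = 0.000294), and its relatives GADD45B (2.21 ± 0.03) and GADD45G (1.37 ± 0.21) also rose. DDIT4, an inhibitor of mTORC1, went the other way with −4.47, −4.20, −2.26 and −2.87 (10.9-fold lower, limma adjusted p = 0.00674). Both arrays of experiment 1 were lower than both of experiment 2, and without experiment 1 DDIT4 had −2.56 at a limma adjusted p of 0.069. Without experiment 1 the stress-arrest group had 6 rises and 0 falls.

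The NF-kB pathway links cytokine receptors to inflammatory genes through inhibitors that are degraded and remade. Among 22 measured subunits, regulators and inhibitors, 9 rose (40.9%, against 20.8% of all genes) and 0 fell (median 0.26). MAP3K14, the kinase NIK of the non-canonical branch, had 3.39, 3.77, 4.19 and 4.03 (14.4-fold, limma adjusted p = 0.000101), higher in experiment 2. The inhibitors NFKBIA (1.73 ± 0.15) and NFKBIE (1.28 ± 0.20) rose, as did the subunits NFKB1 (1.22 ± 0.26) and REL (0.88 ± 0.06). Secreted cytokines, chemokines and growth factors moved little as a group, with 5 rises and 0 falls among 25 (20%, against 20.8% of all genes) and a median of 0.03. EDN1, which encodes the vasoconstrictor endothelin-1, had 3.50, 3.22, 3.46 and 3.98 (11.6-fold, limma adjusted p = 6.79e-05). HBEGF, an EGF receptor ligand, had 2.43, 2.78, 2.23 and 2.49 (5.58-fold), and IL11 lay at 1.29 ± 0.50. Only 2 members of the cytokine group were called without experiment 1, and IL11 was not among them (0.94, limma adjusted p = 0.0612).

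RNAs known to be destroyed in a translation-dependent way, among them natural targets of nonsense-mediated decay, rose in 12 of 22 cases and fell in 1 (median 0.86). This list shares its highest member, ATF3, and also GADD45A and GADD45B with lists above. ATF4, whose upstream reading frames make it a target of nonsense-mediated decay, had 1.04, 2.30, 0.50 and 3.54 (3.59-fold, limma adjusted p = 0.000285). The arrays with treated RNA in Cy5 were the higher ones in both experiments, so its size rests on averaging the dyes. PTBP2, a splicing regulator whose unproductive isoform is decayed, had 1.85, 1.66, 1.88 and 2.01, with 2 of its probes at 2.78 and 2.54 and the third at 0.24. GAS5, a snoRNA host transcript that is rapidly decayed in growing cells, fell (−0.33), while SNHG32 rose (1.53). Splicing factors of the SR family and the CLK kinases that phosphorylate them, which carry poison exons read by the same decay pathway, had 14 rises and 2 falls among 17 (median 0.82). CLK1 had 2.42, 2.35, 2.13 and 1.97 (4.65-fold, limma adjusted p = 0.000455) and CLK4 1.41, 1.44, 1.41 and 1.14 (2.55-fold). SRSF1 (1.29 ± 0.05), SRSF2 (1.22 ± 0.06), SRSF3 (1.04 ± 0.41) and SRSF7 (1.04) were the highest SR members. Of 9 SRSF genes 8 rose and 1 fell. Without experiment 1 that list had 8 rises and 0 falls, and SRSF3 was not called (0.75, limma adjusted p = 0.0938).

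**Figure D2:**
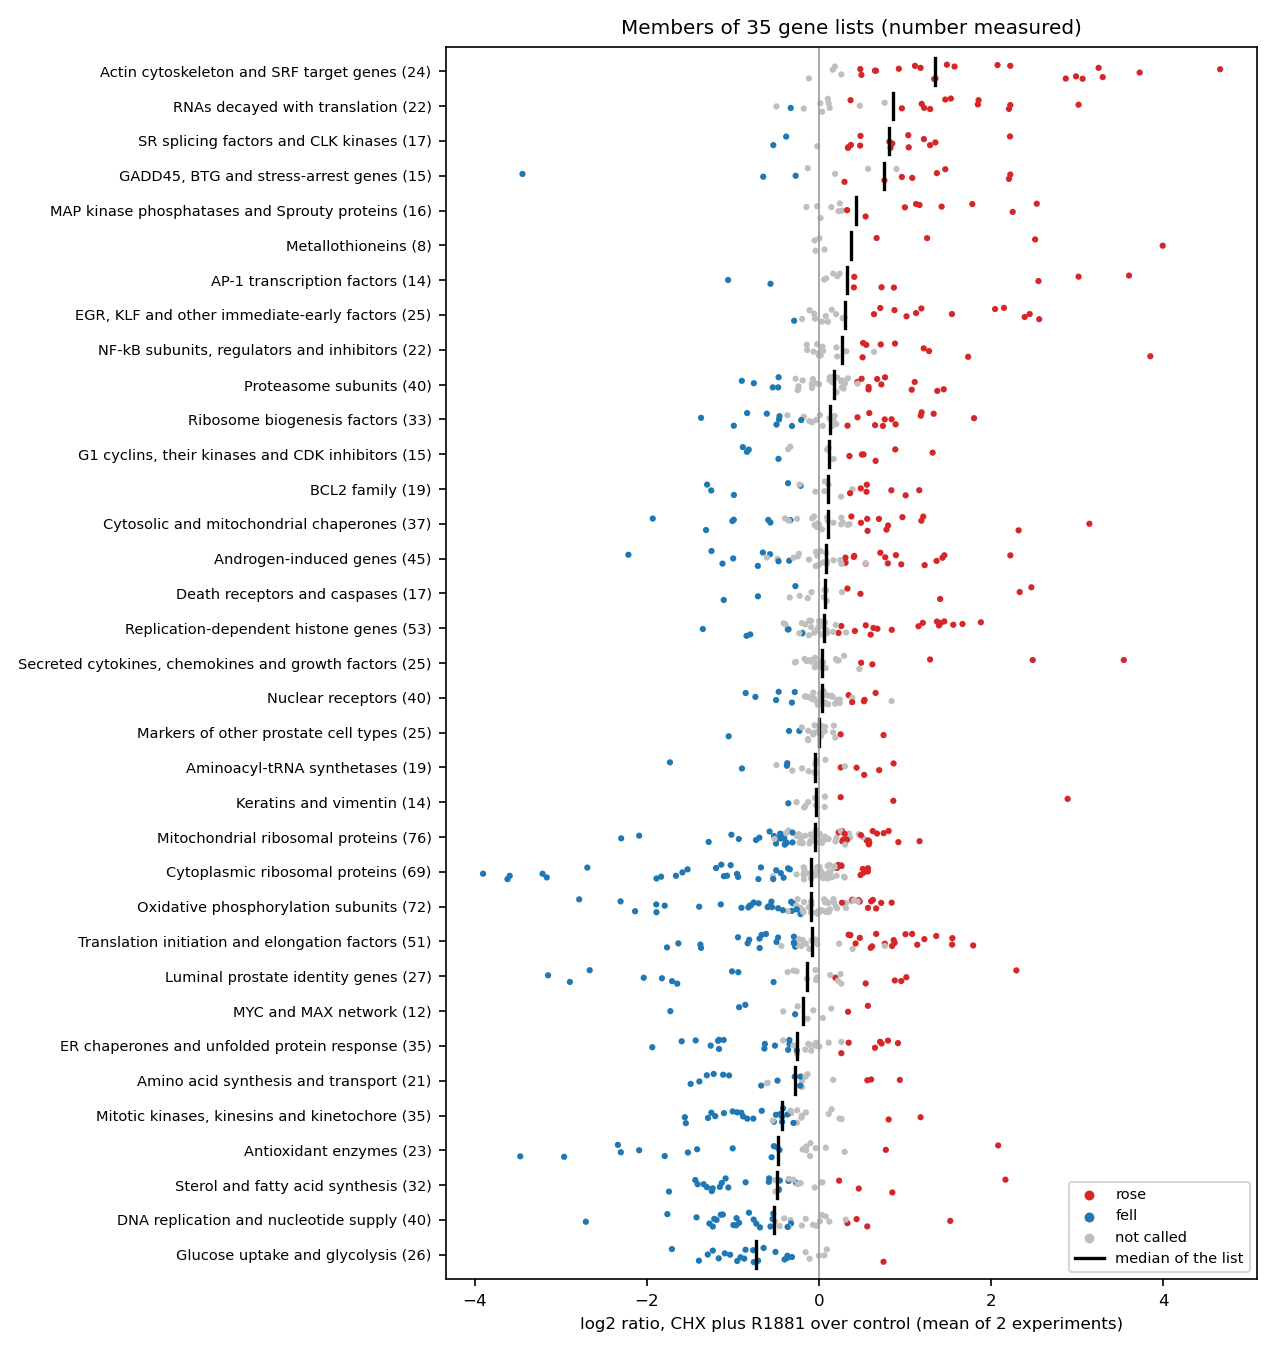
Log2 ratio of CHX plus R1881 over control (mean of 2 experiments, horizontal axis) for every measured member of 35 gene lists, ordered by median, with the number measured in brackets. Red points rose, blue fell and grey were not called, and the black bar is the median of the list, from 1.34 for actin and SRF target genes to −0.73 for glycolysis.

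Metallothioneins, small proteins that bind zinc and copper, had 4 rises and 0 falls among 8, and 2 rises without experiment 1. MT2A had 3.75, 4.40, 3.65 and 4.16 on the 4 arrays (15.9-fold, limma adjusted p = 6.79e-05). MT1G had 2.82, 2.70, 2.47 and 2.04 (5.69-fold, limma adjusted p = 0.000204), MT1F 1.25 ± 0.50 and MT1A 0.67 ± 0.33. MT1M (−0.05), MT1E (−0.04), MT1B (0.00) and MT4 (0.06) were not called. MT1F (0.90, limma adjusted p = 0.18) and MT1A (0.43, limma adjusted p = 0.142) were not called without experiment 1. The MT2A promoter is shown because metallothionein genes are switched on by MTF1 through repeated metal response elements, written here as TGCGCNC or TGCACNC on either strand. It lies on the plus strand at chr16:56608334-56608583 (GRCh38.p14, RefSeq, 250 bases before the start), and matches are in capitals.
MT2A: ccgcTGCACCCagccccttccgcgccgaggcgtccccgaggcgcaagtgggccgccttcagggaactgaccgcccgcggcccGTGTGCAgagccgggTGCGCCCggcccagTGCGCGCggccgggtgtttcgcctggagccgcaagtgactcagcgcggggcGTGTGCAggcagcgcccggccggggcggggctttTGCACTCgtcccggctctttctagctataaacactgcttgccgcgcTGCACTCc
It held 7 matches before the start. All 3 metallothionein genes with a promoter in the table held the letters, MT1B and MT4 among them, as did 8014 of 27305 RefSeq promoters (29.3%) and 4091 of 11612 genes on the array (35.2%).

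Antioxidant enzymes went down. Of 23 measured, 13 fell and 2 rose, with a median of −0.48. All 6 peroxiredoxins, the enzymes that reduce hydrogen peroxide, fell, with a median of −1.81. PRDX1 had −2.70, −3.62, −3.45 and −4.12 (11.1-fold lower, limma adjusted p = 0.000511) and PRDX2 −2.23, −1.64, −2.64 and −2.84 (5.06-fold lower). SOD1, cytosolic superoxide dismutase, had −1.98, −2.82, −3.26 and −3.79 (7.79-fold lower, limma adjusted p = 0.00137), and GPX4, which reduces lipid peroxides, −2.30 ± 0.53. Experiment 2 was the lower one for all 4 of these genes. HMOX1, heme oxygenase 1, rose (2.08), as did GCLM, a subunit of the glutathione-synthesis enzyme (0.77).

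Cytoplasmic ribosomal protein transcripts, which are among the most abundant in growing cells, split widely. Of 69 measured, 26 fell and 9 rose (37.7% and 13%, against 16.6% and 20.8% of all genes). Values ran from −3.90 to 0.57 around a median of −0.09. RPS2 had −2.82, −3.79, −4.37 and −4.64 (mean −3.90, limma adjusted p = 0.0012) and RPL12 −2.38, −3.36, −3.91 and −4.83 (12.3-fold lower, limma adjusted p = 0.00177). RPS3 had −2.61, −3.35, −3.66 and −4.75 (12.1-fold lower) and RPL29 −2.53, −2.60, −3.56 and −4.16 (9.27-fold lower). Each of these was lower on both arrays of experiment 2 than on both arrays of experiment 1. RPL4 (−3.16 ± 0.26) and the stalk protein gene RPLP0 (−2.69 ± 0.00, probes at −3.53 and −1.85) were further strong falls. The large subunit held 17 falls among 44 members and the small subunit 9 among 25. Without experiment 1 the list had 3 rises and 23 falls, and without experiment 2 it had 5 and 21. Of the 26 falls, 20 kept 1 sign on all 4 arrays. RPS13 and RPL11 are named for their disagreement between dyes: in experiment 2 RPS13 had −3.28 with treated RNA in Cy3 and 0.14 in Cy5, and RPL11 −2.25 and 0.36. From arrays with treated RNA in Cy3 alone, 3 members rose and 28 fell, and from those with Cy5 alone 16 rose and 17 fell.

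**Figure D3:**
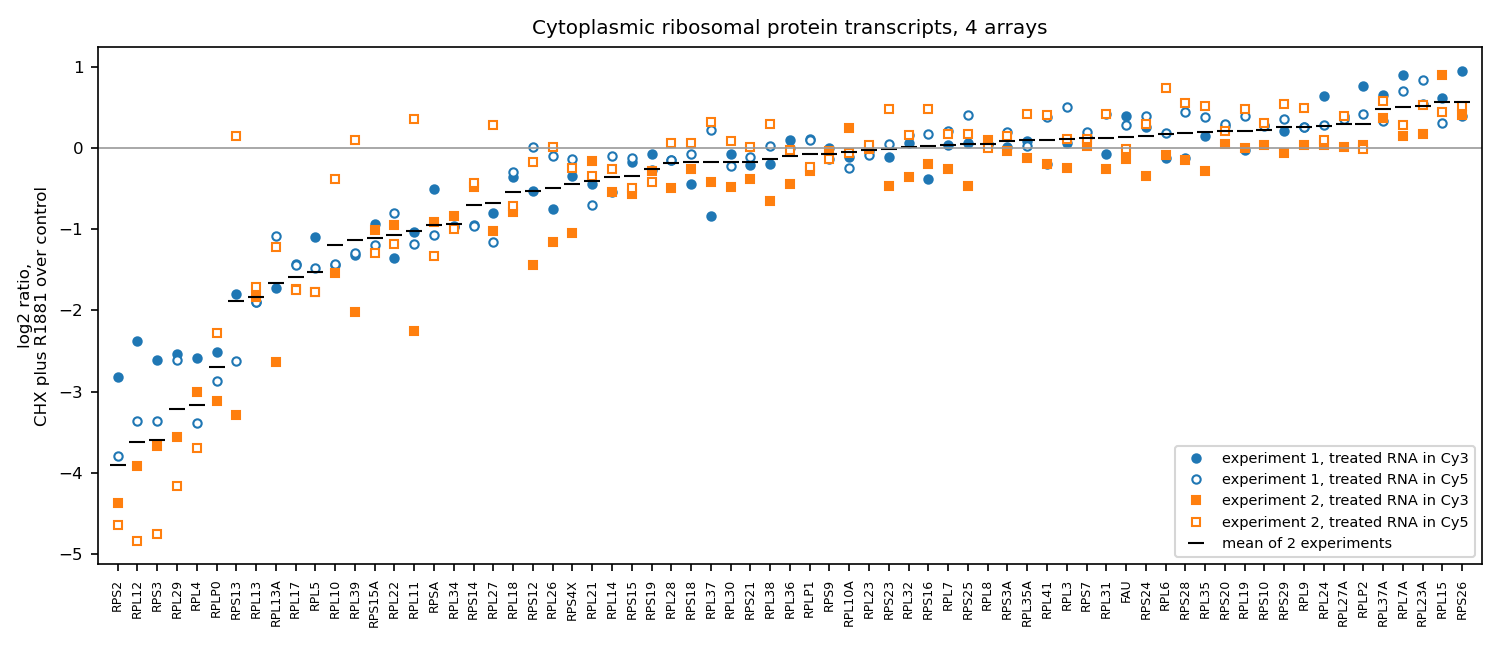
Log2 ratio of CHX plus R1881 over control (vertical axis) on 4 arrays for the measured cytoplasmic ribosomal protein genes, ordered by their mean. A few transcripts on the left lie between −2.69 and −3.90, the lowest being RPS2, while most lie near 0, and the dye orientations part in experiment 2 for several genes, RPS13 and RPL11 among them.

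The mitochondrial counterparts and the respiratory chain were also divided. Among 76 mitochondrial ribosomal proteins 18 rose and 20 fell (23.7% and 26.3%, against 20.8% and 16.6% of all genes, median −0.05). MRPL41 (−2.30 ± 0.49) and MRPL51 (−2.09 ± 0.25) were the lowest and MRPS35 (1.17 ± 0.05) the highest. Without experiment 1 the counts were 12 and 13, and without experiment 2 they were 8 and 15. Of 72 subunits of oxidative phosphorylation, the inner-membrane complexes that make ATP, 25 fell and 10 rose (34.7% and 13.9%). UQCRQ, a subunit of complex III, had −2.02, −2.94, −2.67 and −3.52 (6.91-fold lower, limma adjusted p = 0.000745). ATP5ME of the ATP synthase (−2.31 ± 0.67) and COX6C of complex IV (−2.14 ± 0.19) also fell. On the 4 arrays COX6C had −2.18, −2.36, −2.96 and −1.05, so its dye orientations parted in experiment 2. Complex I held 14 falls among 35 members. Without experiment 2 the respiratory count was 17 falls and 4 rises.

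Translation factors moved in both directions: 20 of 51 rose and 17 fell (39.2% and 33.3%, against 20.8% and 16.6% of all genes, median −0.09). EIF3J (1.79 ± 0.21), EIF4G2, an initiation factor used without the cap-binding protein (1.55 ± 0.27), and EIF2B2, of the exchange factor of eIF2 (1.54 ± 0.26), rose. EIF3E (−1.77 ± 0.32) and EIF3L (−1.64 ± 0.07, probes at −2.70 and −0.57) fell, so subunits of the same EIF3 complex lay at opposite ends. None of 8 elongation factors rose and 4 fell. Among 33 ribosome biogenesis factors 12 rose and 9 fell (36.4% and 27.3%). RRN3, which brings RNA polymerase I to ribosomal DNA, had 1.86, 1.78, 1.93 and 1.63 (3.48-fold), whereas FBL, the rRNA methylase fibrillarin, fell (−1.37 ± 0.18).

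Genes of DNA replication and nucleotide supply fell in 22 of 40 cases and rose in 4, with a median of −0.52. RRM2, the regulated subunit of ribonucleotide reductase, had −2.79, −2.87, −2.73 and −2.45 (6.55-fold lower, limma adjusted p = 0.000191). The clamp partner PCLAF had −3.18, −3.02, −2.53 and −2.30 (6.76-fold lower), and PCNA, the sliding clamp itself, −1.12 ± 0.13. GINS2 (−1.42 ± 0.41), RFC4 (−1.28 ± 0.28) and RFC5 (−1.23 ± 0.38) of the replication machinery fell. MCM7, a subunit of the replicative helicase, rose instead (1.53, 1.19, 1.63 and 1.74, 2.87-fold, limma adjusted p = 0.00491). FEN1, named for its disagreement between experiments, had −2.63 in experiment 1 and −0.90 in experiment 2. Falls were larger in experiment 1 for 20 of the 22 genes, and without that experiment 13 fell and 3 rose. Leaving out experiment 2 gave 20 falls and 1 rise. MCM7 was not called without experiment 2 (1.36, limma adjusted p = 0.0512).

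Mitotic kinases, kinesins and kinetochore genes fell in 21 of 35 cases and rose in 2 (median −0.43). CDK1, the kinase that drives entry into mitosis, had −1.65, −1.56, −1.45 and −1.58 (2.95-fold lower, limma adjusted p = 0.000317). MAD2L1 of the spindle checkpoint had −1.70, −1.75, −1.24 and −1.50 (2.93-fold lower), and CKS2 and BUB3 lay at −1.25 ± 0.03 and −1.29 ± 0.17. The kinesins KIF23 (1.18 ± 0.14) and KIF11 (0.81 ± 0.12) were the 2 rises. Replication-dependent histone genes had 17 rises and 6 falls among 53 (32.1% and 11.3%, against 20.8% and 16.6% of all genes). They were led by H4C8 (1.88 ± 0.32) and H4C6 (1.66 ± 0.09). Among 15 G1 cyclins, their kinases and CDK inhibitors, 6 rose and 4 fell (40% and 26.7%, against 20.8% and 16.6% of all genes). CDKN1B, the inhibitor p27, had 1.45, 1.31, 1.16 and 1.35 (2.49-fold), and CDKN1A, the inhibitor p21, 0.88 ± 0.12 with its probes at 1.79 and −0.03. CCND1, cyclin D1, fell (−0.47 ± 0.10), as did CDK4 (−0.82 ± 0.11). CCND1 was not called without experiment 1 (−0.40, limma adjusted p = 0.0629). The G1 count was 3 rises and 1 fall without that experiment and 4 rises and 2 falls without experiment 2.

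**Figure D4:**
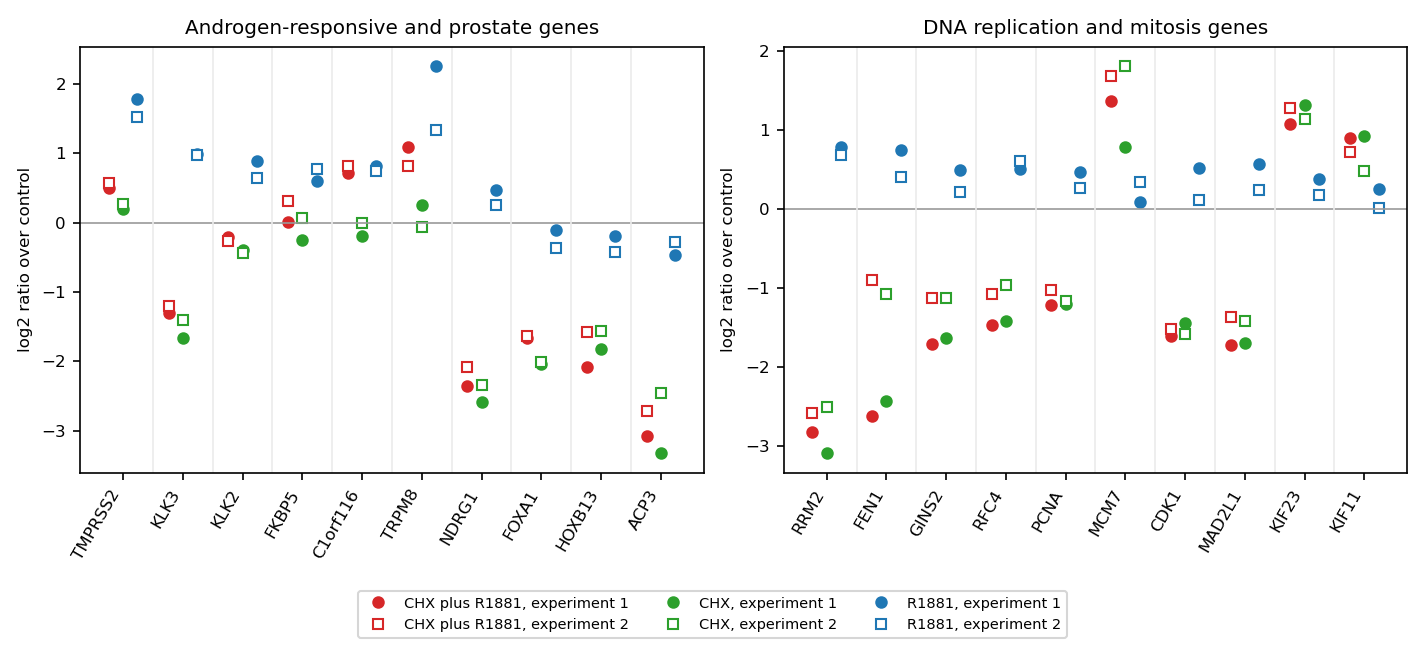
Log2 ratio over control (vertical axis) of 10 androgen-responsive and prostate genes (left) and 10 genes of DNA replication and mitosis (right) after CHX plus R1881 (red), CHX (green) and R1881 (blue), with filled circles for experiment 1 and open squares for experiment 2. All treatments share the control cells, and in the replication panel the red and green points of RRM2 lie between −3.09 and −2.51 and its blue points at 0.78 and 0.69.

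Central metabolism went mostly down. Of 26 genes of glucose uptake and glycolysis 20 fell (76.9%, against 16.6% of all genes) and 1 rose, with a median of −0.73. The lactate transporter SLC16A1 had −1.91, −1.94, −1.39 and −1.60 (3.27-fold lower, limma adjusted p = 0.000278), LDHA, lactate dehydrogenase A, −1.63, −1.38, −1.38 and −1.19 (2.63-fold lower) and LDHB −1.24 ± 0.05. Every array lay below 0 for these genes, which was a condition for naming them. Sterol and fatty acid synthesis had 19 falls and 4 rises among 32 (median −0.49). The desaturase FADS1 (−1.74 ± 0.30), the sterol isomerase EBP (−1.44 ± 0.11), the stearoyl-CoA desaturase SCD (−1.41 ± 0.23) and FDPS, farnesyl diphosphate synthase (−1.34 ± 0.11), fell. SC5D, a later sterol desaturase, had 2.20, 2.08, 2.20 and 2.18 and rose 4.48-fold (limma adjusted p = 0.000164). Amino acid synthesis and transport had 11 falls and 3 rises among 21, with MTHFD2 (−1.49 ± 0.29) and SHMT2 (−1.39 ± 0.15) of mitochondrial folate metabolism and the proline enzyme PYCR1 (−1.31 ± 0.07) lowest. Leaving out experiment 1 gave 12 falls and 0 rises in glycolysis and 12 falls and 1 rise in sterol synthesis, and leaving out experiment 2 gave 15 and 0, and 19 and 1.

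Aminoacyl-tRNA synthetases, which charge tRNAs, had 5 rises and 4 falls among 19, shares of 26.3% and 21.1% against 20.8% and 16.6% of all genes. The counts were 6 and 2 without experiment 1, and 2 and 5 without experiment 2. AARS1, the alanyl enzyme, was lowest at −1.73 ± 0.15 and RARS1, the arginyl enzyme, highest at 0.86 ± 0.51. Chaperones and stress genes of the endoplasmic reticulum fell in 15 of 35 cases and rose in 7 (median −0.26). That is 42.9% and 20%, against 16.6% and 20.8% of all genes. MANF, a secreted ER stress protein, had −1.74, −2.19, −1.87 and −1.96 (3.83-fold lower, limma adjusted p = 0.000241), HERPUD1 −1.60 ± 0.16 and the chaperone CALR −1.43 ± 0.33. Cytosolic and mitochondrial chaperones had 12 rises and 7 falls among 37 (32.4% and 18.9%, against 20.8% and 16.6% of all genes). The constitutive chaperone HSPA8 had −2.08, −2.06, −1.68 and −1.91 (3.82-fold lower), while the small heat shock protein gene HSPB8 had 3.17, 3.28, 2.86 and 3.24 (8.81-fold, limma adjusted p = 0.000252). Proteasome subunits had 11 rises and 5 falls among 40 (40% called, against 37.5% of all genes, median 0.18), led by PSMD6 (1.45 ± 0.26) and PSMD9 (1.37 ± 0.02), with PSMB10, an immunoproteasome subunit, lowest (−0.90 ± 0.08). The proteasome count was 7 rises and 3 falls without experiment 1 and 8 and 3 without experiment 2.

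The BCL2 family, which sets the permeability of the outer mitochondrial membrane, had 7 rises and 5 falls among 19. Its shares were 36.8% and 26.3%, against 20.8% and 16.6% of all genes. The survival gene BCL2A1 (1.16 ± 0.03) and the pore-forming BAK1 (1.00 ± 0.31) rose. BID (−1.30 ± 0.02), BNIP3L (−1.25 ± 0.02) and BNIP3 (−0.99 ± 0.29) fell, and MCL1, a labile survival protein gene, was not called (0.39 ± 0.05, limma adjusted p = 0.0627, or 0.0131 with the experiment number as a replicate block). Among 17 death receptors and caspases 5 rose and 3 fell, shares of 29.4% and 17.6% against 20.8% and 16.6% of all genes. TNFRSF12A, the TWEAK receptor, had 2.28, 2.98, 1.64 and 2.95 (5.52-fold, limma adjusted p = 0.000173), the death receptor FAS 2.69, 2.57, 2.17 and 1.90 (5.03-fold) and TNFRSF10B, a TRAIL receptor, 1.41 ± 0.07. CASP4, an inflammatory caspase, fell (−1.11 ± 0.01). In the MYC and MAX network 4 of 12 fell and 2 rose (33.3% and 16.7%, against 16.6% and 20.8% of all genes). The MAX partners MNT (−1.73 ± 0.14), MXI1 (−0.93 ± 0.04) and MXD4 (−0.86 ± 0.08) fell. MYC was not called (−0.42 ± 0.40, limma adjusted p = 0.127). BAK1 was not called without experiment 1 (0.79, limma adjusted p = 0.0643). The counts then were 4 rises and 3 falls in the BCL2 family, 4 and 1 for death receptors and caspases, and 0 and 3 in the MYC network, where leaving out experiment 2 gave 0 and 3 as well.

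Genes known to be induced by androgens had 15 rises and 9 falls among 45, with a median of 0.08 against 0.01 over all genes. Their shares were 33.3% and 20%, against 20.8% and 16.6% of all genes. KLK3, which encodes prostate-specific antigen, had −1.36, −1.23, −1.26 and −1.15 with the joint treatment (2.38-fold lower, limma adjusted p = 0.000272), while its means were −1.54 with CHX and 0.98 with R1881 against the same controls. TMPRSS2, a membrane serine protease gene, had 0.50, 0.51, 0.68 and 0.47 (1.45-fold, limma adjusted p = 0.0034), with 0.23 for CHX and 1.65 for R1881. It was not called when arrays were scaled to a common spread (0.41, limma adjusted p = 0.431). Such scaling gives the R1881 arrays, with an SD of 0.18 to 0.25 before, the spread of the others. The p-value pools the spread over all treatments, and whether this ended the call was not tested. NDRG1, a stress and differentiation gene, had −2.31, −2.40, −2.20 and −1.95 (4.65-fold lower), against −2.46 for CHX and 0.37 for R1881. STK39, a kinase that regulates ion cotransporters, was the highest member (2.22 ± 0.23), with 2.02 for CHX and 0.60 for R1881. ODC1, the entry enzyme of polyamine synthesis, had 1.45 ± 0.03 and IQGAP2 1.43 ± 0.31. KLK2 (−0.24 ± 0.04) and FKBP5 (0.17 ± 0.21) were not called, although with the replicate block KLK2 was (limma adjusted p = 0.0317).

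Genes of luminal prostate identity fell in 10 of 27 cases and rose in 6 (median −0.14). Their shares were 37% and 22.2%, against 16.6% and 20.8% of all genes. Prostatic acid phosphatase, ACP3, had −3.02, −3.12, −2.77 and −2.68 (7.44-fold lower, limma adjusted p = 0.000375) and the relaxin gene RLN1 −3.50, −3.45, −3.51 and −2.14 (8.87-fold lower). TMEFF2, a transmembrane protein gene of prostate and brain, lay at −2.67 ± 0.21 and the surface antigen STEAP1 at −2.04 ± 0.44. The lineage factors HOXB13 (−1.83 ± 0.35) and FOXA1 (−1.65 ± 0.03), which act together with the androgen receptor, fell too. ELF3, an epithelial ETS factor, had 2.16, 2.62, 2.15 and 2.24 and rose 4.89-fold (limma adjusted p = 8.95e-05). The luminal keratins KRT8 (−0.02) and KRT18 (−0.04) were not called. VIM, the intermediate filament gene vimentin, had 2.92, 2.90, 2.98 and 2.75 (7.40-fold, limma adjusted p = 6.79e-05). Vimentin and the keratins had 3 rises and 1 fall among 14 (28.6% called, against 37.5% of all genes). With treated RNA in Cy3 alone the count was 2 and 0. Of 25 markers of basal, stromal, endothelial and immune cells, 2 rose (TP63, 0.75 ± 0.54, and KRT5, 0.25 ± 0.01). A further 3 fell, among them VWF (−1.05 ± 0.12), and the median was −0.00. The share called was 20%, against 37.5% of all genes. Ratios hold no level, so these markers cannot show whether such cells were present, and the androgen receptor gene was not analysed here. The marker count was 0 rises and 2 falls without experiment 1 or with treated RNA in Cy3 alone, and 1 and 1 without experiment 2. TP63 had 0.36 (limma adjusted p = 0.386) and KRT5 0.24 (limma adjusted p = 0.14) without experiment 1.

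The 40 nuclear receptors moved little, with 5 rises and 6 falls (27.5% called, against 37.5% of all genes) and values from −0.85 to 0.84. NR1H2, a liver X receptor, was the lowest called member (−0.85 ± 0.00), and NR2C1 (0.66 ± 0.29) and the mineralocorticoid receptor NR3C2 (0.53 ± 0.12, probes at 1.07 and −0.02) were among the rises. The counts were 4 and 3 without experiment 1 and 2 and 3 without experiment 2, where NR2C1 was not called (0.45, limma adjusted p = 0.0991). Of the nuclear long non-coding RNAs, NEAT1, the scaffold of paraspeckles, had −1.36, −1.22, −0.88 and −0.76 (limma adjusted p = 0.006) and MALAT1 −0.49, −0.72, −0.64 and −0.34 (limma adjusted p = 0.0122). Without experiment 1 NEAT1 had −0.82 (limma adjusted p = 0.0658) and MALAT1 −0.49 (limma adjusted p = 0.114), and without experiment 2 MALAT1 had −0.61 (limma adjusted p = 0.0568). Against the same controls, CHX alone gave −1.20 for NEAT1 and −0.35 for MALAT1, and R1881 alone gave −0.61 and −0.87.

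The joint treatment was next compared with CHX alone, which asks what the androgen adds when translation is stopped. No gene was called (0 of 14532, 0%). Group medians, joint treatment first and CHX second, were −0.73 and −0.67 for glycolysis and −0.48 and −0.46 for antioxidant enzymes. They were 0.86 and 0.89 for RNAs decayed with translation and −0.49 and −0.60 for sterol and fatty acid synthesis. An unadjusted limma p under 0.05 was met by 185 genes (358 with the replicate block), where chance would give 727. Log ratios that share control cells were fitted as independent, although same-numbered deviations of CHX and the joint treatment correlated at 0.564. Such a correlation can make the p-values of this difference too large, so the low count does not show that the androgen adds nothing. The smallest p belonged to TNK2, a non-receptor tyrosine kinase gene, with 1.39 for the joint treatment and 0.48 for CHX (difference 0.91, limma adjusted p = 0.904). A fit of all 12 arrays with the dye swap as a random block called 2 genes, C1orf116 and ZBTB16. C1orf116, an androgen-induced gene, had 0.71 and 0.82 in the 2 experiments of the joint treatment, −0.19 and −0.00 with CHX and 0.81 and 0.75 with R1881. ZBTB16, the zinc finger factor PLZF, had 0.25 and 0.36 in the joint treatment, −0.55 and −0.38 with CHX and 0.54 and 0.72 with R1881. These 2 genes were called by the random-block fit and by none of the other fits.

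The direct arrays, a dye swap of experiment 1 with no test of its own, put the joint treatment over CHX on the same chip. Of 14532 genes, 6 had at least 0.5 on both arrays and 0 had −0.5 or less, although the 2 arrays hardly correlated over all probes (r = −0.0427). These were TRPM8, a cold-sensing cation channel gene of prostate epithelium (1.01 and 0.98), C1orf116 (0.88 and 0.92), ZBTB16 (0.67 and 0.87), ARHGEF26 (0.81 and 0.67), TYRP1 (0.66 and 0.55) and TNK2 (0.61 and 0.64). They were chosen after their values were seen. Of 45 androgen-induced genes, 24 lay above 0 on both direct arrays, against 3822 of all genes (26.3%). KLK3 had 0.25 and 0.25 there, TMPRSS2 0.44 and 0.31, and FKBP5 0.19 and 0.17. A gene with no call is not shown to be equal under the joint treatment and CHX: the difference for KLK3 was 0.29 with an SE of 0.11, and for FOS 0.04 with an SE of 0.27.

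Against R1881 alone, the joint treatment shows what the inhibitor changes in androgen-treated cells, and 3543 genes differed (24.4%), 2098 higher (14.4%) and 1445 lower (9.94%). ACTA2 (4.54), MT2A (4.03), TCIM (4.02) and MAP3K14 (3.80) were among the 5 highest, and DDIT4 (−3.52), RPS2 (−3.52), RRM2 (−3.44), RPL12 (−3.39) and PCLAF (−3.23) the lowest, as log2 differences. R1881 itself had moved most of these little, with mean ratios between −0.42 and 0.17 for the 10 highest. Of 40 replication genes 23 were lower with the joint treatment than with R1881 and 2 higher, and of 35 mitotic genes 24 were lower and 2 higher. Their medians were −0.52 and −0.43 with the joint treatment, −0.55 and −0.41 with CHX, and 0.34 and 0.34 with R1881. RRM2 had −2.83 and −2.59 in the joint treatment and 0.78 and 0.69 with R1881 (limma adjusted p = 0.000834), and CDK1 had −1.61 and −1.52 against 0.51 and 0.11 (limma adjusted p = 0.00138). Of 45 androgen-induced genes 12 were lower than with R1881, among them KLK3 by −2.23 (limma adjusted p = 0.000633), TMPRSS2 by −1.11 (limma adjusted p = 0.00215) and KLK2 with means of −0.24 and 0.77 (limma adjusted p = 0.00264), and 7 were higher, STK39 among them (1.62). C1orf116 had a difference of −0.01 with an SE of 0.10.

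Between the 2 experiments the ratios correlated at r = 0.881 over probes. Of 2415 falls, 1813 were larger in experiment 1 and 602 in experiment 2, while of 3028 rises 1432 were larger in experiment 1 and 1595 in experiment 2. Ribosomal proteins ran against that pattern, with 16 of 26 falls larger in experiment 2 (RPS2, −3.30 in experiment 1 and −4.50 in experiment 2), as did 9 of 13 antioxidant falls. All 6 rises and all 4 falls of G1 cyclin and CDK inhibitor genes were larger in experiment 1. KLK4 was the androgen-induced gene with the widest gap, at 0.62 in experiment 1 and 2.11 in experiment 2.

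**Figure D5:**
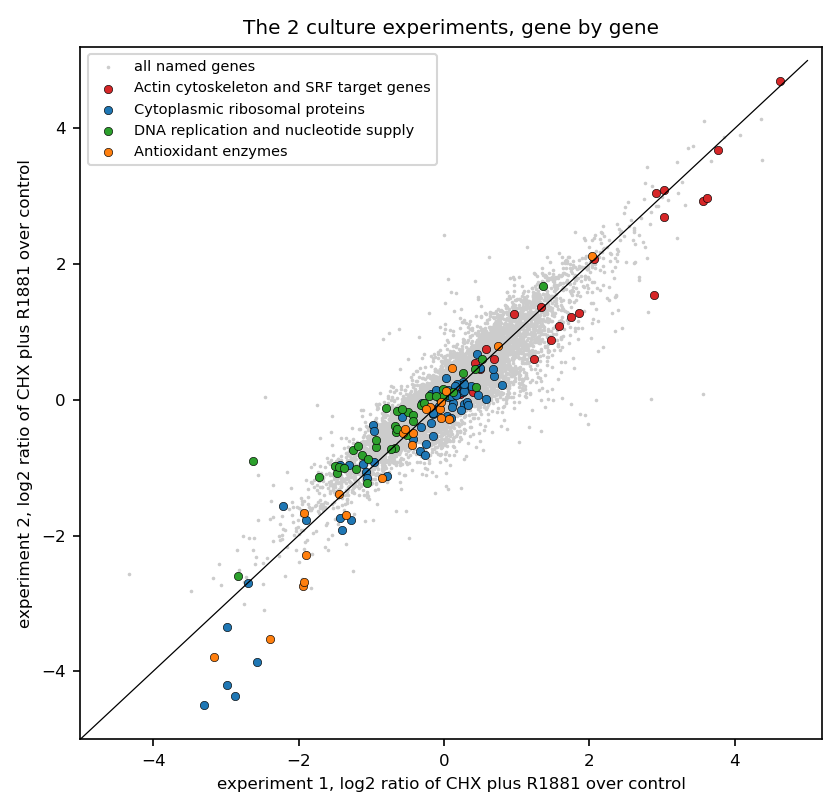
Log2 ratio of CHX plus R1881 over control in experiment 1 (horizontal axis) and experiment 2 (vertical axis) for all named genes (grey) and members of 4 lists (coloured), with the line of equal values. Actin and SRF target genes reach 4.62 and 4.70 for ACTA2, ribosomal protein genes reach −3.30 and −4.50 for RPS2, and most DNA replication genes lie above the line on the negative side.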

How the data were processed

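RNA of LNCaP cells was amplified, coupled to Cy3 or Cy5 and hybridised on 14 2-colour arrays of 27648 probes, with 0 missing values, per the labels' protocols. The deposited values are 1 log ratio per probe and array, taken as log2. Neither the base nor the authors' image analysis and normalization is given in the sources used here. The largest absolute value (5.81) exceeds the log10 of 65535 (4.82), the top of a 16-bit scanner. Signal over background is unknown, since the files hold no intensities. Every array was multiplied by −1.

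Of the probes, 17711 had 1 symbol (14721 through the accession in RefSeq, 1814 by current symbol, 1091 by older symbol, 85 kept) and 9937 none. Values were averaged over the probes of a gene (2068 of 14532 genes had over 1) and over the dye swap. A linear model with a term per treatment was fitted to the 6 log ratios (3 treatments, 2 experiments) with limma 3.58.1 (R 4.3.3). It had 3 residual and 2.57 prior degrees of freedom and no block, and was tested on simulated data. The simulated log ratios were independent, so that test did not cover shared controls or paired experiments. Log ratios that share a control were treated as independent. Deviations of same-numbered experiments from their treatment means correlated at 0.166 to 0.564 between treatments, so the numbers may pair the samples, and counts with the experiment number as a replicate block are given in the closing section.

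Named genes were the 20 largest rises, the 20 largest falls and up to 5 called members a list. These had to be called with 1 sign on all 4 arrays, so their agreement between arrays is no finding. Further named genes were up to 10 each way from the other contrasts and a few fixed by name. Named after their values were seen, beside those the text says so of, were VCL, TPM3, CNN1, CNN3, ACTN4, FLNA, FOSL1, FOSB, JUNB, GAS5, SNHG32, MT1B, MT1E, MT1M, MT4, HMOX1, GCLM, PCNA, KIF11, KIF23, SRSF7, HOXB13, FOXA1, KRT8, KRT18, C1orf116, ZBTB16, TNK2 and KLK4. The members and the 35 lists were chosen with earlier results of these data known. Alternatives were single dyes, scaling, quantile normalization, the replicate block, a random block, contrast groups alone, other gene naming, single probes, a fold limit and each experiment left out. Promoters are from RefSeq on GRCh38.p14.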

Additional observations from a re-analysis of the deposited data

Results flagged for a closer look

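The joint treatment and R1881 alone, measured against the same control cells, had different effects on 3543 genes by the limma test of the difference itself. For 5 named genes the 2 treatments lay on opposite sides of 0, each by at least 0.5 on the log2 scale. RRM2 differed by −3.44, KLK3 by −2.23, BNIP3L by −2.10, RFC4 by −1.83 and VWF by −1.63 (CHX plus R1881 minus R1881). BNIP3L had 0.44 and 1.26 in the 2 experiments of R1881, a wider gap than under the joint treatment (−1.24 and −1.27). VWF, the endothelial von Willebrand factor gene, had −1.13 and −0.97 under the joint treatment and 0.65 and 0.51 with R1881.

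Probes without a gene name took no part in the comparisons. Among 9937 such probes, 26 lay at 2 or more and 10 at −2 or less on all 4 arrays of the joint treatment (0.362% together), with the highest mean at 4.29 and the lowest at −3.38. Named probes passed the same limits in 98 and 70 of 17711 cases (0.949%). With 2 experiments a group, no test for a sample that stands apart could be run.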

How the results depend on the processing

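The joint treatment against control gave 5443 calls. Quantile normalization gave 3304 and a limit of 1.5-fold 2986, and leaving out an experiment gave 3402 to 4218. Of the left-out experiments, experiment 1 gave the lower count. Against R1881 the 3543 calls became 2110 with quantile normalization and 2296 to 2943 with an experiment left out. Quantile normalization gives the arrays of R1881 the same spread as the others by construction. Against CHX the count was 0 in the alternatives run except the random block of the dye swap, which gave 2. With the replicate block the counts were 6431 against control, 0 against CHX and 4730 against R1881, and against control it changed the calls of KLK2 and MCL1 and of no other named gene. The median of death receptors and caspases was 0.06 and became −0.02 with the treated RNA in Cy3 alone, and that of translation factors was −0.09 and became 0.07 with Cy5 alone. The cause was not tested. Each of the 192 named genes kept its sign, and 156 kept their call, under the alternatives run. Genes named as largest changes or list members had to be called with the same sign on every array of the joint treatment. Their kept sign with a single dye or with an experiment left out was therefore given by the choice and is no finding. Leaving out experiment 1 ended, among others, the calls of BAK1, CCND1, IL11, JDP2, MALAT1, MT1A, MT1F, NEAT1 and SRSF3 besides DDIT4. Leaving out experiment 2 ended, again among others, those of MALAT1, MCM7 and NR2C1. Such fits keep 1 log ratio for the joint treatment, so a lost call may come from the smaller n alone. Different probes of a gene were called in opposite directions in 47 of the 338 genes that had several called probes.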
